A study of Mus musculus with 6 samples.

Results

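Fabp4 and a set of genes that mark fat cells and their lipid handling were followed across 6 whole-transcript expression arrays of mouse mammary basal cells. The set named 10 genes, Fabp4, Cd36, Lpl, Pparg, Adipoq, Plin1, Cidec, Cidea, Car3 and Cfd. Fabp4 was chosen by its higher log2 value on the knockout arrays than on the wild type arrays, and the other genes were added as known adipocyte lipid genes with that result in view. The Fabp4 difference is therefore given as a description with no test. Of the 10 genes 9 had a value among the 22180 genes with exactly 1 symbol in the platform annotation, and Cfd, which encodes the secreted protease adipsin, was not analysed here. Values are log2 expression values, on which a difference of 1 is a doubling. A value compares the same gene between arrays and does not rank genes against each other.

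The arrays came from 3 wild type replicates and 3 knockout replicates. The knockout genotype was Trp53-/-, p16ink4a-/- and p19arf-/-, so it lacked p53 and both products of Cdkn2a, and the labels name no agent for either group. The mice were virgin females, 8 to 14 weeks old, and the cells came from glands that were digested, depleted of most CD45, CD31 and TER119 positive cells and sorted as basal cells. Beyond the genotype, how or where the deletions act, and whether a replicate is 1 mouse, is not given in the sources used here. P-values therefore measure the spread between these arrays.

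Fabp4 is a small cytoplasmic protein that carries fatty acids. It is a classic product of mature adipocytes, and capillary endothelial cells and macrophages also make it. In adipocytes the nuclear receptor Pparg drives the programme, Lpl frees fatty acids from circulating lipoproteins, Cd36 takes them up, and Plin1, Cidec and Cidea coat or fuse the lipid droplets. The mammary epithelium grows inside a fat pad, and luminal cells use Cd36, Lpl and Cidea when they make milk fat. The question here was whether the higher Fabp4 signal of the knockout cells came with other fat cell genes, array by array.

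Sequences upstream of the gene starts show what stands before some of the members. From RefSeq's promoter table (build GRCm38.p6), 9 windows of 250 bases before a start were used, for 6 of the 10 genes. They belong to Cd36, Cidec, Pparg, Plin1, Adipoq and Cfd, the last of which has no expression value here. Fabp4, Lpl and Car3 had no entry, and Cidea was left out, so the counts below do not cover these genes. Windows are shown for Cd36, whose genotypes did not overlap, and for Adipoq and Plin1, whose arrays overlapped. They are printed 5′ to 3′ on the gene's strand, and capitals mark TTNNGNAA, a loose form of the C/EBP family motif, on either strand.
Cd36, chr5:17835897-17836146, minus strand: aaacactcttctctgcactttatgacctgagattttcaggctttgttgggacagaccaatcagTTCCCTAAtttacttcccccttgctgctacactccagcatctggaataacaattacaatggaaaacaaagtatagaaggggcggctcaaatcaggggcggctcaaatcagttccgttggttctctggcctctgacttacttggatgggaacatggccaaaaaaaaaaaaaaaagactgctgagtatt
Adipoq, chr16:23146286-23146535, plus strand: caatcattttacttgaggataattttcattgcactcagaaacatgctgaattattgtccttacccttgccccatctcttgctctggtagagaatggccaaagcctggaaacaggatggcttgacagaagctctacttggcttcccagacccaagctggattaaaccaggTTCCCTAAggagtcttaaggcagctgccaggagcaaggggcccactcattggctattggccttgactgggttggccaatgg
Plin1, chr7:79732777-79733026, minus strand: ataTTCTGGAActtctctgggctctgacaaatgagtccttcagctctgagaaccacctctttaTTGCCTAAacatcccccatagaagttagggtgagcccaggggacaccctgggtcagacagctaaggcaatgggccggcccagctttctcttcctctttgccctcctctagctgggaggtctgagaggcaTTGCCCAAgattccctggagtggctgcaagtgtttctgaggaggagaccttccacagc
The C/EBP letters stood in 6 of the 9 member windows and in 36.8% of 32851 windows of that length over all genes. The exact DR1 direct repeat, bound by Pparg with its partner Rxra, was searched on both strands and stood in 0 of the 9 windows and in 0.0335% of all windows. A looser form of DR1 with 1 base left free in each repeat unit, which contains every exact match, stood in 0 of the 9 and in 0.338% of all. TATAAA, searched likewise, stood in 1 of the 9, before the second of 3 listed starts of Pparg, and in 12.4% of all windows. These are matches of letters and not binding sites, and none of the 9 windows is of Fabp4.

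An array has no depth, and precision is limited by the number of arrays. The array medians over 41345 rows were 5.22 to 5.39, and arrays correlated with each other across rows at Pearson's r between 0.961 and 0.978. With limma, 0 of 22180 genes were higher and 0 lower at an adjusted p under 0.05 (0% of genes in each direction), so no member was among them. At an unadjusted p under 0.05, 357 genes were higher (1.61%) and 379 lower (1.71%). With the replicate number as a block these counts were 527 and 585, and again no gene passed. The genotypes did not overlap for 3.63% of genes with the knockout on top and for 4.05% with the knockout below. Of 11 basal markers listed 10 were measured, and their list mean was similar in both genotypes. Such a mean does not show how pure the sort was. The means of 10 measured basal markers lay between 10.43 and 10.73 on the wild type arrays and between 10.39 and 10.79 on the knockout arrays, with Krt14, the basal keratin, at 13.2 or above on each array and its knockout values just below those of wild type. Trp63, the basal transcription factor p63, had a log2 fold change of 0.35 and Myh11, a smooth muscle myosin, of 0.23, both with overlapping arrays. The median log2 fold change of these 10 markers was -0.04, with 3 of them above 0 and 7 below.

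Fabp4 was higher in the knockout on each array. It read 8.22, 8.15 and 8.04 in wild type against 9.21, 9.72 and 9.40 in knockout. The wild type values lay close together and the lowest knockout value stood 0.99 above the highest of them. The means were 8.14 ± 0.094 (SD, n = 3) and 9.44 ± 0.259, a log2 fold change of 1.31 ± 0.179 (SE), or 2.48-fold. Arrays of the same replicate number differed by 0.99, 1.58 and 1.36. By size of log2 fold change Fabp4 ranked 10 among all genes, and by the distance between the groups it ranked 5. Knockout replicate 2 was the highest array, and without it the log2 fold change was 1.17.

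**Figure D1:**
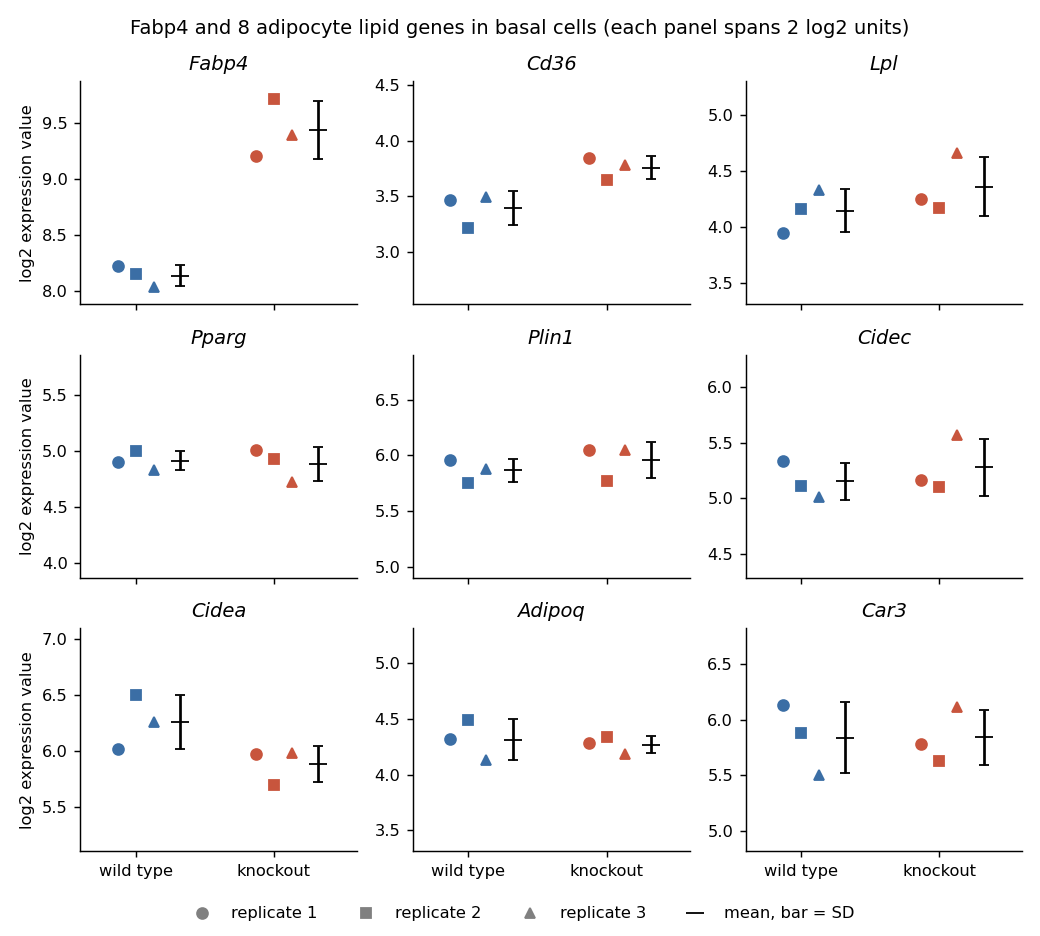
Log2 expression values of the 9 measured members on 3 wild type (blue) and 3 knockout (red) arrays, with marker shapes for replicate numbers and black bars for mean and SD. Each panel spans the same height on the log2 scale. Fabp4 separates by 0.99, Cd36 by 0.15 and Cidea, downward, by 0.03, and the arrays of the other 6 genes overlap.

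In the knockout 5 of the other 8 members were higher and 3 lower, with a median log2 fold change of 0.05, against -0.01 over all genes. One of them, Cd36, stood higher in the knockout without overlap, and one, Cidea, stood lower. Over all genes such separation occurred for 3.63% and 4.05%, as given above. Their mean level was 5.01, 5.01 and 4.93 in wild type against 5.04, 4.91 and 5.13 in knockout. Knockout replicate 2, the array of highest Fabp4, had the lowest mean of the other members, at 4.91 against 4.93 on wild type replicate 3. Among these members only Cidea had its lowest value on knockout replicate 2, at 5.70. None of the 8 had a 95% interval of the limma fit that reached the Fabp4 value of 1.31, and the highest upper bound was 0.65, for Cd36. Fabp4 was chosen by that value, whose own interval ran from 0.90 to 1.71, so the comparison is a description.

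The uptake genes were next after Fabp4 by log2 fold change. Cd36, the fatty acid transporter, read 3.47, 3.22 and 3.49 in wild type against 3.85, 3.64 and 3.78 in knockout. Each knockout value was above each wild type value, but the groups were only 0.15 apart. Its log2 fold change was 0.37 ± 0.127 (SE, limma adjusted p = 1.0, 95% interval 0.08 to 0.65). Lpl, the lipoprotein lipase, read 3.95, 4.16 and 4.33 in wild type against 4.25, 4.17 and 4.67 in knockout. These arrays overlapped, and knockout replicate 3 was the highest. Its log2 fold change was 0.21 ± 0.169 (SE, limma adjusted p = 1.0, 95% interval -0.17 to 0.60). Without knockout replicate 3 it was 0.062, and without wild type replicate 1, the lowest array, 0.12. A second row of Lpl, not used in the fit, had a log2 fold change of 0.20 and was again highest on knockout replicate 3, at 4.40.

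Pparg, the regulator that acts upstream of Fabp4 in adipocytes, did not separate the genotypes. It read 4.91, 5.00 and 4.83 in wild type against 5.01, 4.93 and 4.72 in knockout. Knockout replicate 3 was the lowest array and knockout replicate 1 the highest. The log2 fold change was -0.03 ± 0.135 (SE, limma adjusted p = 1.0), and the 95% interval ran from -0.34 to 0.28. Leaving out knockout replicate 3 gave 0.053, of the opposite sign.

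The droplet genes Plin1 and Cidec overlapped between the genotypes. Plin1, the perilipin that coats the droplets of mature adipocytes, read 5.96, 5.75 and 5.88 in wild type against 6.05, 5.77 and 6.05 in knockout. Knockout replicate 2 lay inside the wild type range, and the log2 fold change was 0.09 ± 0.152 (SE, limma adjusted p = 1.0, 95% interval -0.25 to 0.44). With an array left out it lay between 0.0349 and 0.184. Cidec, a droplet fusion protein of white fat, read 5.34, 5.11 and 5.01 in wild type against 5.16, 5.10 and 5.57 in knockout. Knockout replicate 3 alone lay above the wild type range. The log2 fold change of Cidec was 0.13 ± 0.169 (SE, limma adjusted p = 1.0, 95% interval -0.26 to 0.51), and it was -0.019 without that array.

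Cidea, a relative of Cidec known from brown fat and from milk fat secretion, pointed the other way. It read 6.01, 6.50 and 6.26 in wild type against 5.97, 5.70 and 5.98 in knockout. The knockout values lay below the wild type values, by 0.03 at the nearest. The log2 fold change was -0.37 ± 0.176 (SE, limma adjusted p = 1.0, 95% interval -0.77 to 0.03). It was -0.25 without wild type replicate 2. In a sorted population, fewer cells of a type and less RNA per cell cannot be told apart. Luminal markers were lower as well: 13 of 14 were lower, with a median log2 fold change of -0.37. Over all genes 11477 of 22180 were lower. The luminal list means were 7.61, 8.77 and 8.54 in wild type against 7.96, 8.10 and 7.64 in knockout. Wild type replicate 1 thus had the lowest of these means, below each knockout array. Without wild type replicate 2 the count of lower luminal markers was 10 and their median -0.18, and without wild type replicate 1 the median was -0.691. Anxa3, an annexin, had a log2 fold change of -0.48. It was the 1 marker of the 14 with all knockout arrays below, where 4.05% of all genes stood so. The luminal keratins Krt8 and Krt18 were at -0.33 and -0.61 and the transcription factor Foxa1 at -0.85, each with overlapping arrays. Their part in the Cidea value was not tested. On the wild type arrays Cidea and the luminal mean were both lowest at replicate 1 and highest at replicate 2, while knockout replicate 2, lowest for Cidea, was the highest knockout array for the luminal mean.

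Adipoq, the adipocyte hormone adiponectin, gave no difference beyond the spread of the arrays. It read 4.32, 4.49 and 4.13 in wild type against 4.28, 4.34 and 4.18 in knockout. All knockout values lay inside the wild type range. The log2 fold change was -0.05 ± 0.135 (SE, limma adjusted p = 1.0, 95% interval -0.35 to 0.26). Car3, a carbonic anhydrase abundant in adipocytes and in skeletal muscle, read 6.13, 5.88 and 5.51 in wild type against 5.78, 5.63 and 6.11 in knockout. All 3 knockout values lay inside the wild type range here too. Its log2 fold change was 0.00079 ± 0.203 (SE, limma adjusted p = 1.0, 95% interval -0.46 to 0.46), and a second row of Car3, not used in the fit, had 0.033. The Car3 value was 0.15 without wild type replicate 1 and -0.17 without wild type replicate 3.

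A filter that keeps genes with a mean above the median gene mean of 5.78 kept 4 of the 9 measured members, Fabp4, Plin1, Cidea and Car3. Cd36, Lpl, Pparg, Cidec and Adipoq were left out by it. No detection call was used here, so whether these genes were above background is not known.

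**Figure D2:**
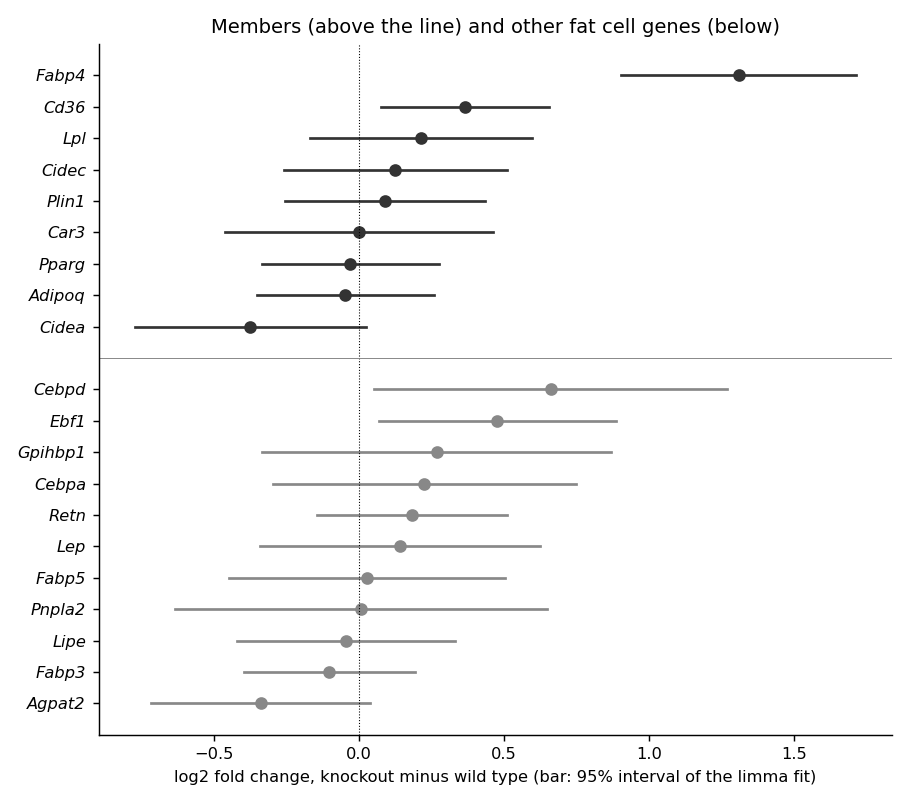
Log2 fold changes, knockout minus wild type, with 95% intervals of the limma fit, for the 9 measured members (above the line) and 11 other fat cell genes (below it). Fabp4 is at 1.31, and among the other members the highest upper bound is 0.65, for Cd36.

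Other genes of the adipocyte programme were spread around 0. Of 54 genes listed 52 were measured. In the knockout 30 of them were higher and 22 lower, with a median log2 fold change of 0.03 and 0 past the limma threshold. The genotypes did not overlap for 5 of the 52, with Klf15, Ebf1, Retn and Angptl8 higher in the knockout and Agpat2 lower (over all genes 3.63% and 4.05%). Where over all genes 48.3% were higher, here 57.7% were. The list mean lay between 6.73 and 7.004 on the wild type arrays and between 6.77 and 6.91 on the knockout arrays.

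Beside Pparg, which was at -0.03, the list held 8 further regulators of fat cell formation, and none passed the test. These 8 had values above 0, with a median log2 fold change of 0.20, while Ppargc1a and Prdm16, regulators of the thermogenic list, were at -0.04 and -0.05. The count was 8 under both other scalings of the arrays, and 7 with array weights or without wild type replicate 1, wild type replicate 3 or knockout replicate 2. Cebpd, an early factor of adipocyte differentiation that stress also induces, read 8.996, 9.27 and 8.29 in wild type against 9.73, 9.67 and 9.15 in knockout, for a log2 fold change of 0.66 ± 0.269 (SE, limma adjusted p = 1.0). Knockout replicate 3 lay inside the wild type range. Ebf1, an early B cell factor that also acts in preadipocytes, read 4.80, 4.68 and 4.73 in wild type against 5.35, 4.82 and 5.47 in knockout, for a log2 fold change of 0.48 (limma adjusted p = 1.0). Its knockout arrays were all above, with replicate 2 the closest. Cebpa, which acts with Pparg in mature adipocytes, had a log2 fold change of 0.23 ± 0.230 (SE) and overlapping arrays.

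Genes of lipid breakdown and lipid synthesis had values on both sides of 0. Among 11 genes of lipolysis and droplets 7 were higher, with a median of 0.05. Pnpla2, the first lipase of fat breakdown, had a log2 fold change of 0.0062 and Lipe, the hormone-sensitive lipase, of -0.04. Among 8 genes of triglyceride and glycerol handling 3 were higher, with a median of -0.09. Agpat2, an acyltransferase of triglyceride synthesis, read 7.47, 7.70 and 7.66 in wild type against 7.10, 7.34 and 7.38 in knockout, for a log2 fold change of -0.34 ± 0.166 (SE, limma adjusted p = 1.0). Each knockout value of Agpat2 was below each wild type value. Dgat1 and Dgat2, which complete triglyceride synthesis, were at -0.56 and -0.61 with overlapping arrays. Among 8 genes of lipase partners and fatty acid handling 3 were higher, with a median of -0.05, and Gpihbp1, which holds Lpl on capillaries, had a log2 fold change of 0.27 ± 0.265 (SE). The lowest value of all 52 genes was that of Ffar4, a fatty acid receptor, at -1.19 with overlapping arrays.

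The adipokines were measured with small values. Of 8 secreted factors 6 were higher, with a median log2 fold change of 0.19. Retn, resistin, read 5.73, 5.45 and 5.74 in wild type against 5.85, 5.81 and 5.81 in knockout, for a log2 fold change of 0.18. Its arrays separated by less than the range within wild type. Lep, leptin, had a log2 fold change of 0.14 ± 0.213 (SE) and overlapping arrays. Thermogenic genes of brown fat were 4 higher and 3 lower of 7, with a median of 0.09. Ucp1, the uncoupling protein, had a log2 fold change of 0.48 with overlapping arrays, Elovl3, a fatty acid elongase, of 0.52 with all knockout arrays above, and Cox7a1, a respiratory chain subunit, of -0.61.

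The genotypes overlapped for the measured relatives of Fabp4, as they did for most genes. The fatty acid binding protein family has members next to Fabp4 on the chromosome, in the order Fabp5, Pmp2, Fabp9, Fabp4 and Fabp12 by the RefSeq gene table. Fabp5, the epidermal form, read 12.2, 12.6 and 12.6 in wild type against 12.6, 12.0 and 12.9 in knockout, for a log2 fold change of 0.03 with a 95% interval of -0.45 to 0.50. Its knockout arrays held both the lowest and the highest value. Pmp2, a myelin protein, had a log2 fold change of 0.15, Fabp9, the testis form, of 0.09 and Fabp12 of -0.07. Fabp3, the form of heart and mammary gland, was at -0.10 on the log2 scale, with a 95% interval of -0.40 to 0.19. Over the 9 family members beside Fabp4 the values lay between -0.29 and 0.23, and the genotypes overlapped in all 9. Over all genes they separated for only 3.63% with the knockout above and 4.05% with it below, so such overlap is common. The highest upper 95% bound was 0.62, for Pmp2. The family members other than Fabp3 and Fabp5 were added after the value of Fabp4 was seen.

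Cell types other than adipocytes that make Fabp4 were followed through their markers. Capillary endothelial markers were 8 higher and 8 lower of 16, with a median log2 fold change of 0.03. Their means were 5.47, 5.29 and 5.29 in wild type against 5.40, 5.44 and 5.41 in knockout. Pecam1, which encodes CD31, used for depletion, read 5.85, 5.66 and 5.73 in wild type against 6.18, 6.39 and 5.77 in knockout, and Cdh5, the endothelial cadherin, had a log2 fold change of 0.27 with overlapping arrays, as Kdr, a receptor for the growth factor VEGF, did at 0.31. On the lower side were Eng at -0.17, Egfl7 at -0.13, Cldn5 at -0.11 and Vwf at -0.08, also with overlapping arrays. Ptprb, a receptor phosphatase of vessels, had a log2 fold change of 0.42 (limma adjusted p = 1.0). It was the 1 marker of the 16 with all knockout arrays above, where 3.63% of all genes stood so. Knockout replicate 2 was the highest array for Fabp4, for Pecam1 and for Ptprb, and the part of these cells in the Fabp4 value was not tested.

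Macrophage markers were 10 higher and 5 lower of 15, with a median log2 fold change of 0.08. Their means were 5.28, 5.11 and 5.11 in wild type against 5.29, 5.15 and 5.35 in knockout. Cd68, a lysosomal protein, read 7.22, 7.32 and 6.91 in wild type against 7.43, 7.65 and 7.45 in knockout, for a log2 fold change of 0.36 (limma adjusted p = 1.0). C1qc, a complement chain, had a log2 fold change of 0.27. Cd68 and C1qc were the 2 markers of the 15 with all knockout arrays above, where 3.63% of all genes stood so. Cd68, like Fabp4, was highest on knockout replicate 2. Ptprc, which encodes CD45, had 0.23 with overlapping arrays. The 5 lower markers were Itgam at -0.17, Fcgr1 at -0.12, Cd163 at -0.11, Adgre1 at -0.05 and C1qb, the partner chain of C1qc, at -0.05. Knockout replicate 2, highest for Fabp4, had the lowest macrophage mean of the knockout arrays. Their part in the Fabp4 value was not tested.

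The lists of fibroblast markers and of milk genes both held values near or above that of Fabp4, Dpt and Lum in the former and Lalba, Csn2 and Csn1s1 in the latter. Fibroblast and preadipocyte markers are given first. In the knockout 12 of the 15 were higher and 3 lower, with a median log2 fold change of 0.14. The list mean was 6.71, 6.68 and 6.47 in wild type against 6.88, 6.93 and 6.98 in knockout, so the genotypes did not overlap in it. Of the 15 markers only 2, Dpt and Lum, had all knockout arrays above, where 3.63% of all genes did. These 2 have the largest fold changes of the list and enter its mean, and the list mean without them was not computed. At an unadjusted limma p under 0.05, 4 of the 15 were higher and 0 lower, against 1.61% and 1.71% of all genes. Dpt, dermatopontin, a matrix protein of fibroblasts, read 6.06, 6.71 and 6.01 in wild type against 7.45, 7.47 and 7.50 in knockout, for a log2 fold change of 1.21 ± 0.211 (SE, limma adjusted p = 1.0). Each knockout value stood above each wild type value. Lum, the matrix proteoglycan lumican, read 4.23, 4.17 and 3.98 in wild type against 5.43, 4.72 and 6.09 in knockout, for a log2 fold change of 1.28 ± 0.294 (SE, limma adjusted p = 1.0). Its knockout arrays were all above but spread widely, with replicate 2, the highest for Fabp4, the lowest.

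Other fibroblast markers overlapped between the genotypes. Pdgfra, the receptor that marks fibroblasts and preadipocytes, read 5.09, 5.49 and 4.51 in wild type against 6.64, 5.78 and 5.23 in knockout, for a log2 fold change of 0.85 with overlapping arrays. Dcn, decorin, had a log2 fold change of 0.54 and overlapping arrays. Fibrillar collagens had small values, with Col1a1 at 0.13, Col1a2 at 0.06 and Col3a1 at 0.14, and Pi16 and Dpp4, of early adipose progenitors, were at 0.0016 and -0.12. The part of these cells in the Fabp4 value was not tested.

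**Figure D3:**
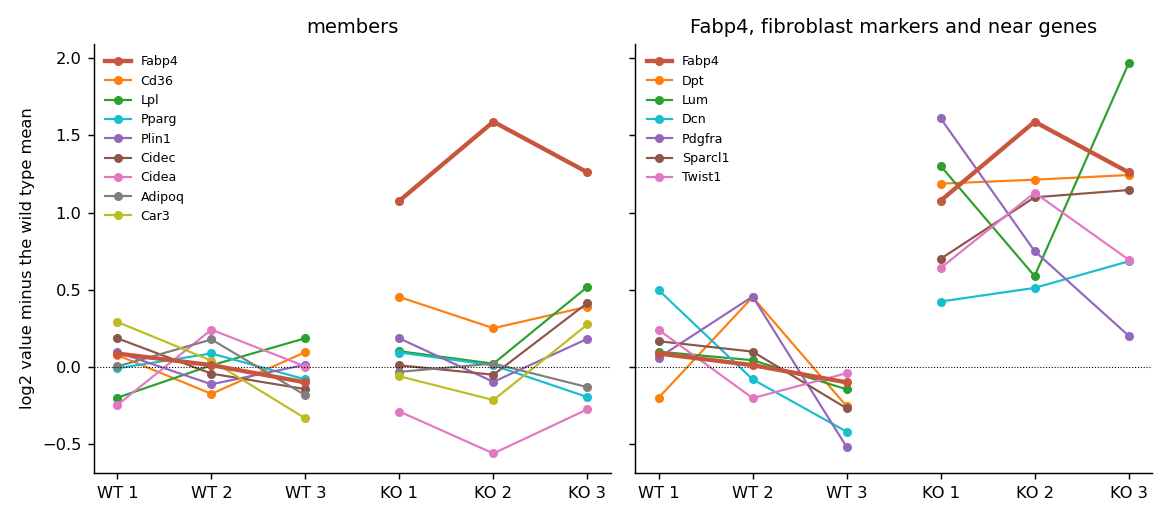
Log2 value of each gene minus its wild type mean on 3 wild type (WT) and 3 knockout (KO) arrays, for the 9 members (left) and for Fabp4 beside 4 fibroblast markers and 2 genes of similar pattern (right). Lines only join the values of 1 gene within a genotype. Fabp4 lies at 1.08 or more on each knockout array, where the other members reach at most 0.52.

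Markers of further cell types showed other patterns. Mural cell markers were 5 higher and 3 lower of 8, with a median of 0.0096, and Rgs5, a pericyte marker, at 0.02. The others named of this list were Notch3 at -0.24, Kcnj8 at 0.24, Cspg4 at 0.22 and Mcam at -0.07, and their arrays overlapped. Markers of skeletal muscle, which also makes Car3, were 6 higher and 2 lower of 8, with a median of 0.11 and Ckm, the muscle creatine kinase, at -0.0037. Tnnc2 was at 0.23, Mb, myoglobin, at 0.17, Myh4 at 0.12 and Acta1, skeletal actin, at -0.12, with overlapping arrays. Red blood cell markers were measured by 1 of 6, Slc4a1, at -0.05. Milk genes were 7 higher and 4 lower of 11, with a median of 0.21, and their list mean was highest on knockout replicate 3, at 7.49, against 6.07 to 6.53 on the other 5 arrays. Without that array the median was -0.00228. Lalba, which encodes alpha-lactalbumin, read 7.38, 6.82 and 5.87 in wild type against 9.47, 6.72 and 9.69 in knockout, for a log2 fold change of 1.94 ± 0.720 (SE, limma adjusted p = 1.0). It was thus high on knockout replicates 1 and 3, while replicate 2 lay inside the wild type range. Csn2, the beta casein, read 8.03 on knockout replicate 3 and at most 3.95 elsewhere, for a log2 fold change of 1.597. Csn1s1, a casein, read 6.83 on that array and between 2.71 and 3.18 on the others. Csn3, the kappa casein, had a log2 fold change of 0.84 with all knockout arrays above and replicate 3 the highest. Csn1s2a, a further casein, was at 0.67 and Mfge8, a milk fat globule protein, at -0.11, both with overlapping arrays. Lpl and Cidec were likewise highest on that array, and the part of milk-producing cells in their values was not tested.

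**Figure D4:**
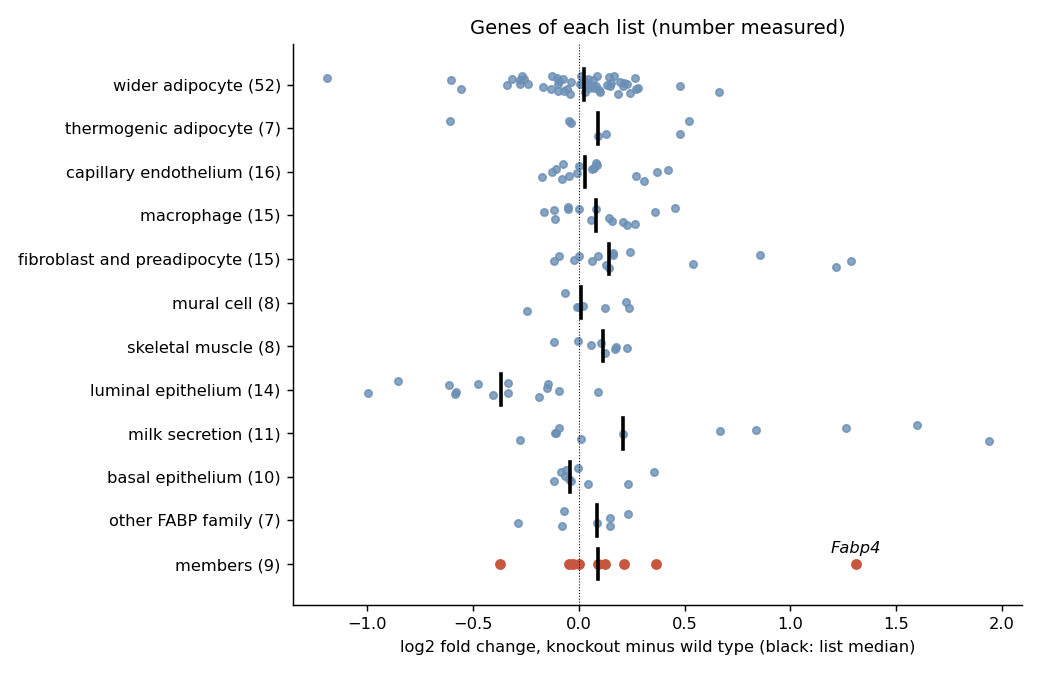
Log2 fold change, knockout minus wild type, of each measured gene in 11 lists (blue) and of the 9 measured members (red), with black bars for list medians. Fabp4, which was chosen by its value, is the highest of the members at 1.31. The fibroblast list holds Dpt and Lum at 1.21 and 1.28 beside a median of 0.14. The milk list holds Lalba at 1.94, Csn2 at 1.597 and Csn1s1 at 1.26 beside a median of 0.21.

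The genes most like Fabp4 in pattern were sought over the 6 arrays among 837 genes with an SD of at least 0.5. The 5 genes of highest Pearson's r, leaving out unnamed models and pseudogenes, were Sparcl1, a matrix protein (r of 0.965), Xaf1, an interferon-induced gene (0.962), Tfb1m, a mitochondrial RNA methyltransferase (0.960), Twist1, a mesenchymal transcription factor (0.957), and Snord58b, a small nucleolar RNA (0.944). These r values rest on 6 arrays that fall into 3 of each genotype, and they are given as a description. Sparcl1 read 5.68, 5.62 and 5.25 in wild type against 6.22, 6.62 and 6.66 in knockout, for a log2 fold change of 0.98 (limma adjusted p = 1.0). Twist1 read 5.76, 5.32 and 5.48 in wild type against 6.16, 6.65 and 6.22 in knockout, for a log2 fold change of 0.82 (limma adjusted p = 1.0). Both had every knockout array above every wild type array, and Twist1, like Fabp4, was highest on knockout replicate 2. A gene that varies little within a genotype can reach that SD only through the genotype difference. None of the other members reached it, the highest SD being 0.275 for Cidea, so they could not be among the 5. Their r with Fabp4 was 0.773 for Cd36, 0.389 for Lpl, 0.319 for Cidec, 0.217 for Plin1, 0.0015 for Car3, -0.107 for Adipoq, -0.147 for Pparg and -0.815 for Cidea.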

How the data were processed

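Expression was measured on 6 arrays, 1 per replicate. The deposited log2 values were made by the authors with RMA (background correction, normalization between arrays and summary per probe set) and Transcriptome Analysis Console 4.0, per the submitters' processing notes. Scan batches were not used here. Rows with exactly 1 symbol (23521 of 41345) were kept, and 1814 rows with several symbols and 16010 unnamed ones were left out. Where a gene had more than 1 row, as 1082 genes did, its row of highest mean was used. No pair of arrays held identical values.

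The knockout was compared with wild type by limma 3.58.1 under R 4.3.3 (lmFit and eBayes, trended prior, two-sided), with Benjamini-Hochberg adjustment over 22180 genes and a threshold of 0.05. The fit was tested on simulated data, but recovery was required only for shifts larger than the Fabp4 difference. That check does not say how often smaller shifts are found. Intervals are 95%, and fold changes are knockout minus wild type. The members, gene lists and tests were chosen with earlier results of these data known. Named genes were the members, the 5 of highest r with Fabp4 and 8 fat cell genes that act with a member. In each list except the fatty acid binding protein family, the 3 of smallest p, the one of highest signal and the first were named too. Further genes, among them Klf15, Angptl8, Dgat1, Dgat2, Ffar4, the collagens, Pi16, Dpp4, Csn2, Ppargc1a, Prdm16 and the lower endothelial and macrophage markers, were named after their values were seen.

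Same-numbered arrays of both genotypes deviated from their group means together, with r of 0.121, 0.25 and 0.127 across genes. Each is over 0.1, so the numbers were taken as possible pairs on the data alone, since the labels do not say what they share. Wild type replicate 1 also correlated at 0.13 with knockout replicate 3. Deviations from a group mean cancel within a gene, so r of both signs arise in any case. These r cannot show that same-numbered arrays are pairs. The reported fit had no replicate block, and the block was an alternative. Other alternatives were an untrended prior, array weights, quantile normalization, median centring, leaving out dim genes, other rows of a gene, and leaving out each array. Figures were drawn with matplotlib 3.10.9.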

Additional observations from a re-analysis of the deposited data

How the results depend on the processing

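The Fabp4 log2 fold change was 1.28 with array weights, 1.33 with quantile normalization and 1.3 with arrays centred on their median. The rest of the 8 alternatives that keep all arrays could not change it. Fabp4 has 1 row, and they leave its values and group means as they are. When an array was left out it lay between 1.17 and 1.42. No gene of the table passed under any setting, at an adjusted p under 0.1 in the full fit or with the replicate block, and the smallest adjusted p over the settings was 0.0749, without knockout replicate 1. Each replicate number occurs once per genotype, so the block cannot change a fold change, and it changed no call. Cd36 stayed above 0 (0.278 to 0.422 with an array left out) and Cidea below 0 (-0.496 to -0.253).

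Signs turned for members near 0. With array weights Pparg was 0.0439 and Adipoq 0.0475, and Car3 was -0.0117 with quantile normalization and -0.0050 with arrays centred on their median. With an array left out Pparg ranged from -0.0914 to 0.0527, Adipoq from -0.138 to 0.043, Cidec from -0.0193 to 0.218 and Car3 from -0.166 to 0.147. The cause was not tested.

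Leaving out dim genes kept 1 thermogenic gene, Cox7a1 (-0.609), 2 macrophage markers, Cd68 and C1qa (median 0.26), 5 endothelial markers (-0.0788) and 3 muscle markers (0.0569), so these are not shifts of the whole lists, and array weights gave 0.054 for muscle. With an array left out the thermogenic, endothelial, macrophage and muscle medians ranged from 0.0171 to 0.186, from -0.0261 to 0.124, from -0.00434 to 0.183 and from 0.0372 to 0.122. The median of the wider adipocyte list lay between -0.0429 and 0.0569, of the luminal list between -0.691 and -0.18, and of the milk list between -0.00228 and 0.456, and Plin1 lay between 0.0349 and 0.184. The fibroblast median lay between 0.0926 and 0.221 with an array left out. It lay between 0.121 and 0.159 under the alternatives that keep all arrays. The milk median was 0.357 with array weights and 0.11 without dim genes. Cd36, Lpl, Pparg, Cidec and Adipoq have no value without dim genes. The number of arrays limits what differences could be called.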
